A study of Homo sapiens with 2 samples.

Results

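The 9 genes described here mark opposite ends of the epithelial-to-mesenchymal transition (EMT): SNAI1, SNAI2, ZEB1, VIM and TAGLN on the mesenchymal side, and CDH1, EPCAM, ESRP1 and GRHL2 on the epithelial side. They were taken by gene symbol from the deposited table of 16642 genes, and all 9 are in it. The table compares 2 RNA sequencing libraries of PC9, an established human lung adenocarcinoma line with an activating EGFR mutation. The PC9-TAZ4SA library came from cells expressing an active mutant of TAZ, the Hippo pathway co-activator encoded by WWTR1. The other library came from control PC9 cells. Per the labels' protocols, lentiviral Tet-On vectors were used and TAZ4SA was switched on with doxycycline at 50 ng/mL over the last 24 h before RNA was taken. Both samples carry one and the same protocol text, which leaves unstated whether control cells were given doxycycline or an empty construct vector, and whether the lines were clones or pools. Each condition has 1 library, so the effect of TAZ4SA cannot be tested and the spread between cultures was not measured.

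EMT is the programme by which epithelial cells loosen their junctions and take on a migratory, fibroblast-like form. SNAI1, SNAI2 and ZEB1 encode zinc finger repressors that bind E-box sequences and switch off epithelial genes, CDH1 above all. VIM and TAGLN encode cytoskeletal proteins that are read as markers of the mesenchymal state. GRHL2 is a transcription factor that keeps epithelial genes on and opposes ZEB1, and ESRP1 imposes epithelial splicing. In lung adenocarcinoma with mutant EGFR, loss of epithelial genes is known as a companion of resistance to EGFR inhibitors.

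Values are the authors' normalized counts, and ranges in brackets are 95% counting intervals, computed from the reads recovered from those counts (29668388 for TAZ4SA and 47684754 for the control). WWTR1 stood at 15628 normalized counts in TAZ4SA cells against 4933 in control cells, 3.17-fold higher (3.07 to 3.27). This gene count does not separate reads of the introduced TAZ4SA from those of the cells' own gene. A gene was called higher or lower when the mean of its normalized counts reached 20, the log2 ratio of (normalized count + 1) reached 1.5-fold and its counting interval left out a ratio of 1. Of the 14074 genes with a mean of at least 20, 4.16% were called higher and 4.44% lower. The median log2 ratio of these genes was 0.00019. The epithelial label of the line held: the keratin genes KRT7, KRT8, KRT18 and KRT19 lay between 47694 and 89793 normalized counts in TAZ4SA cells and between 53479 and 74904 in control cells. The lung lineage markers NKX2-1 and SFTPC were not analysed here, NAPSA had 6 reads in each library, and SFTPB was 3.72-fold lower, on 15 reads in TAZ4SA cells and 90 in control cells.

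The epithelial genes were high in both libraries, while some of the mesenchymal genes, all below the epithelial ones in level per kb, were higher in TAZ4SA cells. Of the 5 mesenchymal genes, SNAI2 and TAGLN were called higher and 0 were called lower; ZEB1 was under the minimum mean. Of the 4 epithelial genes, 0 were called in either direction. Over all measured genes, 4.16% were called higher and 4.44% lower. These shares depend on level: 10.5% and 9.67% at means of 20 to 100, where TAGLN lies. At means of 100 to 1000, where SNAI2 lies, they were 4.70% and 5.49%. Above 1000, where the 4 epithelial genes lie, they were 1.75% and 2.10%. The median log2 ratio was 0.69 over the 4 mesenchymal genes that met the minimum, 1.02 over all 5, and 0.17 over the 4 epithelial genes. Genes of one class are not replicates, and the ratios within each class were unequal, so these medians only describe the 9 genes. In bulk RNA, more of a transcript per cell and more cells with it cannot be told apart.

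The levels of both classes were far apart in each library when set per kb of transcript. EPCAM was highest, at 16454 normalized counts per kb in TAZ4SA cells and 15763 in control cells, above 99.5% of all genes with a known transcript length in TAZ4SA cells and 99.4% in control cells. CDH1 and ESRP1 changed places per kb: CDH1 was second in TAZ4SA cells at 3274, with ESRP1 next at 2516, whereas in control cells CDH1 stood at 2704 and ESRP1 at 3082. This swap depends on the transcript lengths used. In normalized counts, CDH1 was above ESRP1 in TAZ4SA cells (16008 against 9576) and in control cells (13220 against 11728). GRHL2 came next in both libraries, at 1133 per kb in TAZ4SA cells and 912 in control cells. SNAI2 was the highest mesenchymal gene, at 515 per kb in TAZ4SA cells and 252 in control cells, so that GRHL2, the lowest epithelial gene, was still 2.20-fold above it in TAZ4SA cells and 3.61-fold above it in control cells. VIM followed at 168 per kb in TAZ4SA cells and 131 in control cells. TAGLN, at 57.6 per kb in TAZ4SA cells against 28.2 in control cells, and SNAI1, at 41.3 in TAZ4SA cells against 45.9 in control cells, also changed places. Their counting intervals overlapped in TAZ4SA cells (46.1 to 71.1 for TAGLN, 30.4 to 54.8 for SNAI1) but not in control cells (21.9 to 35.8 for TAGLN, 36.7 to 56.7 for SNAI1). ZEB1 was lowest in both, at 4.63 per kb in TAZ4SA cells and 1.29 in control cells. No other neighbours in the order had overlapping intervals.

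**Figure D1:**
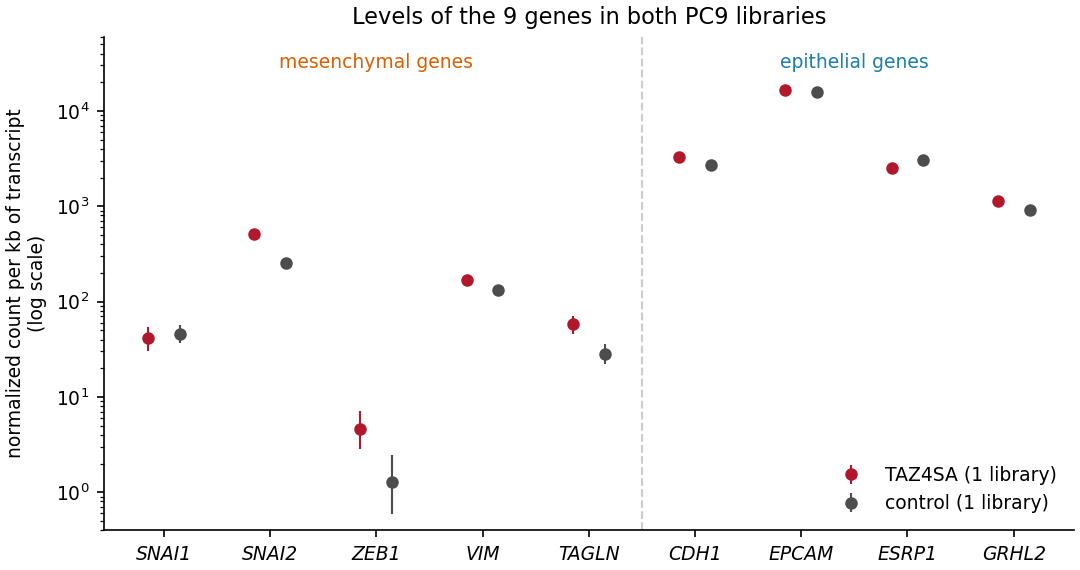
Level of each of the 9 genes in normalized counts per kb of transcript (log axis) in TAZ4SA cells (red, left of each pair) and control cells (grey, right); bars are 95% Poisson intervals of counting error, with 1 library per group. The 4 epithelial genes lie above the 5 mesenchymal genes in both libraries, and ZEB1 is lowest at 4.63 in TAZ4SA and 1.29 in control cells.

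Among the SNAIL family, SNAI2 (ENSG00000019549), which encodes SLUG, was the member that differed. It had 1250 normalized counts in TAZ4SA cells (862 reads) and 613 in control cells (681 reads), 2.04-fold higher (1.84 to 2.26). Its log2 ratio of 1.03 was above that of 98.2% of the measured genes, and in its range of means, 100 to 1000, 4.70% of genes were called higher and 5.49% lower. SNAI1 (ENSG00000124216), which encodes SNAIL, had 69.6 normalized counts in TAZ4SA cells and 77.4 in control cells, a log2 ratio of -0.15, on 48 reads in TAZ4SA cells and 86 in control cells. Its interval, 0.619 to 1.30 as a ratio, included 1, so a difference was not detectable at this depth. Per kb, SNAI2 stood at 1247% of SNAI1 in TAZ4SA cells and 550% in control cells. The ratio of these ratios, which does not depend on how the libraries are scaled, was 2.27 (1.55 to 3.35). SNAI3, the remaining family member, had 18 reads in TAZ4SA cells and 35 in control cells, with an interval that included a ratio of 1.

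ZEB1 (ENSG00000148516), which represses CDH1 and the miR-200 genes, was close to the limit of detection in this line. It had 29.01 normalized counts in TAZ4SA cells (20 reads) and 8.10 in control cells (9 reads). The ratio was 3.58 with a wide interval, 1.56 to 8.94, and the mean of 18.6 is under the minimum of 20, so ZEB1 entered no count. The antisense gene ZEB1-AS1, which overlaps it on the opposite strand, had 54 reads in TAZ4SA cells and 61 in control cells. Per kb, ZEB1 stood at 14.8% of ZEB1-AS1 in TAZ4SA cells and 5.89% in control cells, a ratio of ratios of 2.51 whose interval, 0.985 to 6.78, included 1. The sources used here do not give the strandedness of the libraries, so reads of these overlapping genes may not be told apart. ZEB2, its paralog, had 5 reads in TAZ4SA cells and 11 in control cells, and its interval included a ratio of 1.

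Sequences of the known control circuit of ZEB1 are given because ZEB1 had the lowest level and the largest ratio of the 9 genes. That rank by ratio is uncertain, since the mean of ZEB1 was under the minimum and its interval overlapped those of SNAI2 and TAGLN. In epithelial cells the miR-200 family holds ZEB1 mRNA down, and ZEB1 in turn binds E-boxes to repress those miRNA genes. The mature sequences, from RefSeq (GRCh38.p14), fall into groups by seed (bases 2 to 8, in capitals):
hsa-miR-200b-3p: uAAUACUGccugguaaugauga
hsa-miR-200c-3p: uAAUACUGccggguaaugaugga
hsa-miR-429: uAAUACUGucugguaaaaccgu
hsa-miR-200a-3p: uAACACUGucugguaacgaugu
hsa-miR-141-3p: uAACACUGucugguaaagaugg

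The 3′ UTR of the principal ZEB1 transcript in GENCODE 29, 1938 bases long, holds 5 matches to the seed shared by miR-200b, miR-200c and miR-429 and 3 to the seed shared by miR-200a and miR-141. An example of each follows, written 5′ to 3′ with the seed match in capitals.
ZEB1 3′ UTR bases 369 to 375, for miR-200b, miR-200c and miR-429: gttttatcttatCAGTATTatc
ZEB1 3′ UTR bases 782 to 788, for miR-200a and miR-141: aatcatcagaatCAGTGTTtgt

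Mature miRNAs were not analysed here. The precursor gene MIR200A had 4 reads in TAZ4SA cells and 8 in control cells, with an interval of the ratio from 0.178 to 3.01, and gene counts of a hairpin do not measure its mature miRNA. MIR205HG, the host gene of another miRNA that targets ZEB1, had 725 normalized counts in TAZ4SA cells and 1073 in control cells, 1.48-fold lower (1.33 to 1.65). It fell short of 1.5-fold and was not called, and counts of a host gene do not measure the mature miRNA either.

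The ZEB1 promoter was searched because SNAIL and ZEB proteins and the TEAD partners of TAZ have known short motifs. RefSeq lists 7 start sites for ZEB1, and the window shown is the one whose start lies nearest to that of the principal GENCODE transcript. It covers the 250 bases before the RefSeq start, chr10:31318966-31319215, plus strand, GRCh38.p14, which is not the build of the counts. The GENCODE start lies 91 bases before the RefSeq one, inside the window. The E-box that begins 85 bases before the RefSeq start therefore lies after the GENCODE start. Capitals mark the E-box CAGGTG on either strand.
ZEB1 promoter: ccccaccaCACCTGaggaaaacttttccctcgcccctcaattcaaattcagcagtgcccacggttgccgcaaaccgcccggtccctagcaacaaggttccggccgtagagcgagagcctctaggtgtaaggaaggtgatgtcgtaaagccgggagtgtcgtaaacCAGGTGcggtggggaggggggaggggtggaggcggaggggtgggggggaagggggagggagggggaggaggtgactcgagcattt

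This window holds 2 E-boxes of this form and 0 copies of the TEAD motif GGAATG or its reverse complement CATTCC. Over all 7 ZEB1 windows, 2 held the E-box and 0 the TEAD motif. Of 34788 distinct promoter windows of the same length, 17.5% held the E-box and 11.9% the TEAD motif, so a match is common. A match describes letters, not a bound site.

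The cytoskeletal markers differed by unequal amounts. TAGLN (ENSG00000149591), which encodes the actin-binding protein transgelin and is a target of serum response factor in smooth muscle, had 125 normalized counts in TAZ4SA cells (86 reads) and 61.2 in control cells (68 reads). It was 2.04-fold higher (1.47 to 2.84), above 98.2% of measured genes by log2 ratio. In its range of means, 20 to 100, 10.5% of genes were called higher and 9.67% lower. TAGLN overlaps PCSK7 on the opposite strand, a gene with 2235 normalized counts in TAZ4SA cells and 2612 in control cells, so reads in the shared stretch may be miscounted. VIM (ENSG00000026025), which encodes the intermediate filament protein vimentin, had 360 normalized counts in TAZ4SA cells and 280 in control cells. The VIM ratio was 1.29 (1.08 to 1.52), short of the 1.5-fold threshold although its interval left out 1. VIM-AS1, which overlaps VIM, had 20 reads in TAZ4SA cells and 21 in control cells, with an interval that included a ratio of 1.

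VIM and CDH1 are often read together as an EMT index. Per kb, VIM stood at 5.15% of CDH1 in TAZ4SA cells and 4.85% in control cells. The ratio of ratios was 1.06, with an interval of 0.893 to 1.26 that included 1, since both genes were higher in TAZ4SA cells. The SNAI2 to CDH1 ratio, by contrast, was 1.69 times higher (1.52 to 1.87) in TAZ4SA cells. As a share of the reads of all 9 genes, the 5 mesenchymal genes made up 2.97% in TAZ4SA cells (2.81 to 3.14, exact binomial interval) and 1.79% in control cells (1.69 to 1.90). Most of these mesenchymal reads were from SNAI2.

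The epithelial genes had small counting error, on 4091 to 19556 reads in TAZ4SA cells and 5311 to 30203 in control cells. Their narrow intervals leave out the spread between cultures, which was not measured. CDH1 (ENSG00000039068), which encodes E-cadherin, had 16008 normalized counts in TAZ4SA cells and 13220 in control cells, a ratio of 1.21 (1.18 to 1.24). EPCAM (ENSG00000119888), an epithelial surface adhesion molecule, had 28366 in TAZ4SA cells and 27175 in control cells, a ratio of 1.04 (1.03 to 1.06). GRHL2 (ENSG00000083307) had 5934 in TAZ4SA cells and 4779 in control cells, a ratio of 1.24 (1.19 to 1.29). All of these were slightly higher in TAZ4SA cells and none reached 1.5-fold.

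ESRP1 (ENSG00000104413), which encodes an epithelial splicing regulator, was the epithelial gene with the lower value. It had 9576 normalized counts in TAZ4SA cells and 11728 in control cells, a log2 ratio of -0.29, or 1.22-fold lower (1.19 to 1.26). Against CDH1 in the same library, ESRP1 was 1.48-fold lower in TAZ4SA cells than in control cells (1.43 to 1.54), and against GRHL2 it was 1.52-fold lower (1.45 to 1.60). The counting intervals of all 4 epithelial ratios lay between 0.793 and 1.29, inside 1.5-fold in either direction. Of the genes with a mean above 1000, where the epithelial genes lie, 1.75% were called higher and 2.10% lower.

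**Figure D2:**
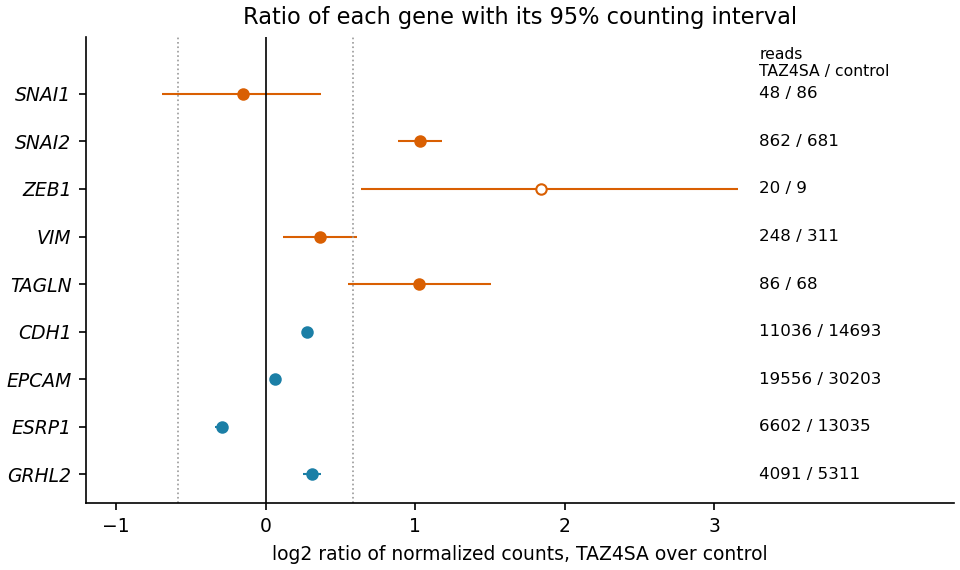
Log2 ratio of normalized counts, TAZ4SA over control, for each of the 9 genes (orange mesenchymal, blue epithelial), with 95% counting intervals; dotted lines mark 1.5-fold, the open circle a mean under 20, and the columns at the right the reads in each library. SNAI2 and TAGLN lie at 2.04-fold, ZEB1 has the widest interval, on 20 reads in TAZ4SA cells and 9 in control cells, and the 4 epithelial genes lie inside the dotted lines.

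**Figure D3:**
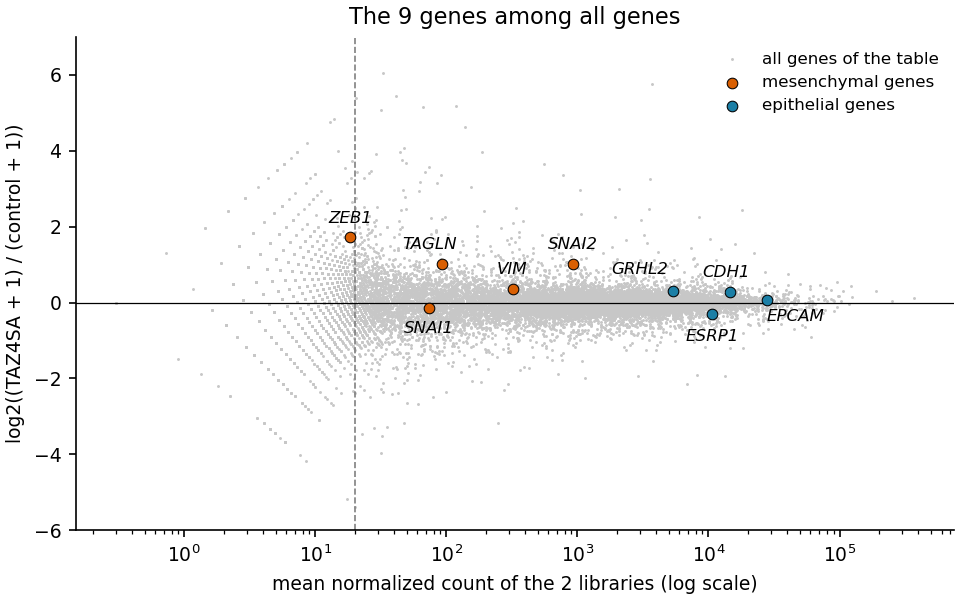
Log2 ratio of (normalized count + 1), TAZ4SA over control, against the mean normalized count (log axis) for all 16642 genes (grey; means under 0.3 drawn at 0.3) and the 9 genes (orange mesenchymal, blue epithelial); the dashed line marks the minimum mean of 20. The 5 mesenchymal genes all have means under 1000, from 18.6 for ZEB1 to 932 for SNAI2, and the 4 epithelial genes have means above 1000.

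Paralogs of the epithelial genes did not all share their ratios. The GRHL family split: GRHL2 was 1.24-fold higher, GRHL1 was 1.34-fold lower, and GRHL3, a factor of epidermal barrier formation, was called lower at 3.44-fold (2.81 to 4.24), with 164 normalized counts in TAZ4SA cells and 563 in control cells. Per kb, GRHL2 stood at 1983% of GRHL3 in TAZ4SA cells and 465% in control cells. ESRP2, which shares splicing targets with ESRP1, had 2643 normalized counts in TAZ4SA cells and 2333 in control cells, 1.13-fold higher (1.07 to 1.20), so that ESRP1 stood per kb at 361% of ESRP2 in TAZ4SA cells and 501% in control cells. TAGLN2 had 15383 normalized counts in TAZ4SA cells and 13813 in control cells and was 1.11-fold higher (1.09 to 1.14). Per kb, TAGLN stood at 0.601% of TAGLN2 in TAZ4SA cells and 0.328% in control cells.

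Genes around the 9 were grouped in 13 lists by role, 176 genes in all, of which 155 had a mean of at least 20. Among these 155, 7 (4.52%) were called higher and 13 (8.39%) lower, beside 4.16% and 4.44% of all measured genes. The shares of all genes depend on level: 10.5% higher and 9.67% lower at means of 20 to 100, but 1.75% and 2.10% above 1000. The lists were not matched for level. On the mesenchymal side, 5 of 10 other EMT transcription factors were measured and 0 were called. The largest values among them were those of TWIST1, a helix-loop-helix factor, at a log2 ratio of 0.53 on 38 reads in TAZ4SA cells and 42 in control cells, with an interval that included 0, and of TCF4, at -0.37. TWIST2, PRRX1, FOXC2 and GSC were not analysed here.

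Other mesenchymal markers went both ways, with 3 of 12 measured genes called higher, 2 called lower and 0.24 as the median log2 ratio. Over all measured genes, 4.16% were called higher and 4.44% lower. FN1, encoding the matrix protein fibronectin, had 30623 normalized counts in TAZ4SA cells and 5622 in control cells and was 5.45-fold higher. COL5A1, a fibrillar collagen gene, was 2.60-fold higher and TNC, encoding tenascin-C, 1.95-fold higher. S100A4, a calcium-binding protein gene, was 2.52-fold lower and LOX, a collagen crosslinking enzyme gene, 1.62-fold lower. CDH2, which encodes N-cadherin, was not analysed here, nor were CDH11, THY1 and POSTN. Among transgelin relatives and contractile genes, 1 of 13 was called, the tropomyosin gene TPM1 at 1.56-fold higher, and 10 of 13 had log2 ratios above 0. The smooth muscle gene ACTA2 had 16 reads in TAZ4SA cells and 26 in control cells.

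Epithelial junction genes were mostly close in both libraries. Of 23 measured besides CDH1 and EPCAM, 0 were called higher and 2 were called lower, beside 4.16% and 4.44% of all measured genes. The median of the 23 was 0.02 on the log2 scale. Those lower were the tight junction genes CLDN3, 1.80-fold, and TJP3, 1.74-fold. Among 9 partners of the E-cadherin complex, 2 were lower, both nectin genes: PVRL1 at 1.84-fold and PVRL4 at 1.67-fold. The catenin genes that link E-cadherin to actin were not called. Of 5 simple keratin genes 0 were called, and the highest ratios were those of KRT18 and KRT80, with log2 ratios of 0.47 and 0.39.

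Among other epithelial transcription factors and signature genes, most of the genes called were lower. Over all measured genes, 4.16% were called higher and 4.44% lower, and the lists were chosen with earlier results of these data known. Of 13 other epithelial transcription factors, 3 were called lower and 1 higher, and the median was -0.40 on the log2 scale. Besides GRHL3, the genes lower were SPDEF, an ETS factor of secretory cells, at 2.28-fold, and the pioneer factor gene FOXA1 at 1.90-fold, while KLF4 was 1.54-fold higher. Of 25 genes commonly used in carcinoma epithelial signatures, 4 were lower and 0 higher, with a median of -0.24 and 19 below 0. These were SCNN1A, a subunit of the epithelial sodium channel, at 2.01-fold, FXYD3 at 1.93-fold, the membrane protease gene PRSS8 at 1.57-fold and CDS1 at 1.51-fold. At 2-fold, 2 of the transcription factors and 1 of the signature genes were called lower, and 0 of either list higher. The shares of all measured genes at 2-fold were 1.56% lower and 1.90% higher.

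Among genes that act on the 9 or on their products, 2 were called, both higher, where 4.16% of all measured genes were called higher and 4.44% lower. Of 9 other splicing regulators 0 were called, the largest values being log2 ratios of -0.55 for MBNL3 and 0.19 for QKI. Of 8 genes known to be spliced by ESRP proteins 0 were called, with CTNND1 at -0.17 and EPB41L5 at 0.13; gene counts do not show which isoform was made. Among 15 corepressors that SNAIL and ZEB proteins use, 1 was called, AJUBA, a LIM protein gene, at 1.92-fold higher (1.81 to 2.04). Among 12 genes of SNAIL protein turnover, 1 was called, the kinase gene LATS2, at 2.75-fold higher (2.56 to 2.97). Of 8 proteases that cut E-cadherin or EpCAM 0 were called, with PSENEN at -0.32 and PSEN2 at -0.19.

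Markers of other cell types were set beside the mesenchymal genes. Of 10 fibroblast markers 2 were analysed. Their summed level was 554 normalized counts in TAZ4SA cells and 538 in control cells, and COL6A3 was called lower at 1.96-fold. The fibroblast markers COL1A2, COL3A1, DCN, LUM, PDGFRA, PDGFRB, THY1 and FAP were not analysed here. Of 10 leukocyte markers 3 were analysed, with summed levels of 75.4 in TAZ4SA cells and 40.5 in control cells. Of these, 2 had a mean of at least 20, and ITGAM was called higher at 2.46-fold, on 32 reads in TAZ4SA cells and 21 in control cells. Of 10 endothelial markers 5 were analysed, at sums of 2974 in TAZ4SA cells and 3340 in control cells. Only 3 of them had a mean of at least 20, and 0 were called. Over all measured genes, 4.16% were called higher and 4.44% lower. At means of 20 to 100, where ITGAM lies, 10.5% were called higher and 9.67% lower. The part of other cell types in the mesenchymal values was not tested.

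**Figure D4:**
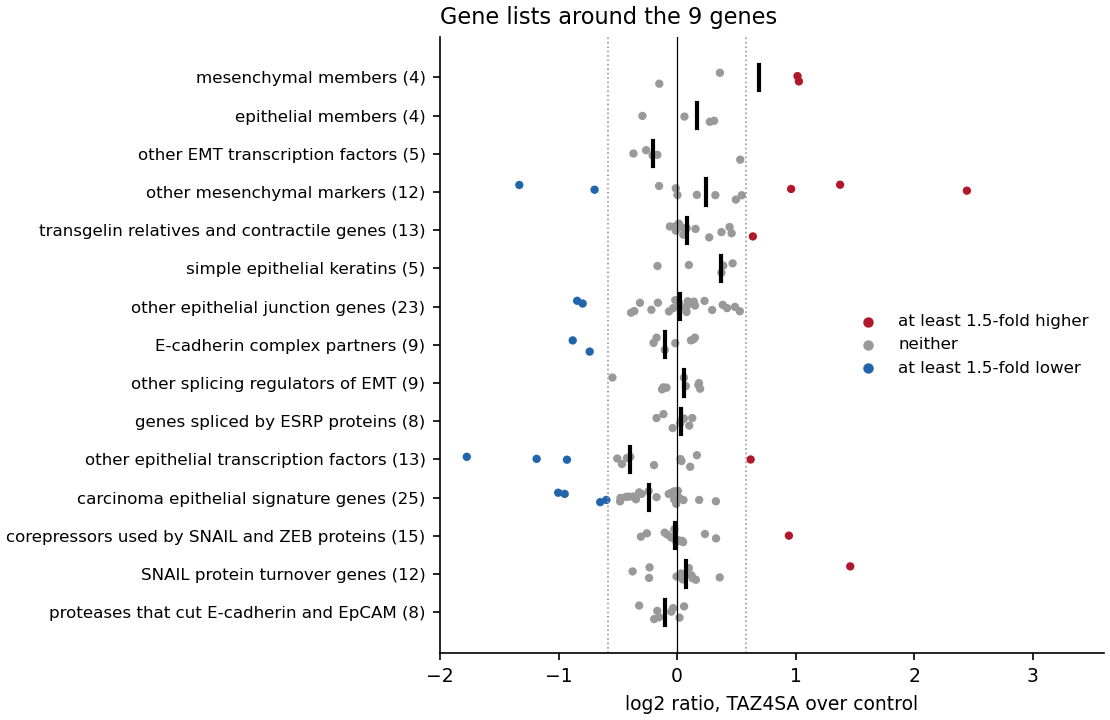
Log2 ratio, TAZ4SA over control, of each gene with a mean of at least 20 in the mesenchymal and epithelial genes and the 13 related lists; numbers in brackets count the genes drawn, black bars are medians, dotted lines mark 1.5-fold, red dots were called higher and blue dots lower. The 4 epithelial genes lie between -0.29 and 0.31, and the lowest list median, -0.40, is that of the other epithelial transcription factors.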

How the data were processed

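The deposited table holds, for each gene, a signal value per library, a read count that the authors divided by a size factor per library, and the authors' log2 fold change. Trim Galore, STAR, HTSeq, DESeq2 and GRCh37 are named in the submitters' processing notes, without versions or roles. In both columns 100% of values were whole multiples of a step within 0.01 reads; the steps gave size factors of 0.689 (TAZ4SA) and 1.11 (control). The table holds 0 columns of p-values, and a count test cannot be run with 1 library per group. The authors' deposited log2 fold change of SNAI2 was 1.03.

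Log2 ratios here used log2(normalized count + 1), which understates differences of low genes. Intervals are exact conditional binomial ones from the recovered reads (for pairs of genes, conditional odds ratios, or the log-odds normal form where all counts exceed 1000). They leave out all error but that of counting, and a read is not an independent molecule. Levels per kb used the longest protein-coding transcript in GENCODE 29, or the longest transcript of a gene with no protein-coding one, matched by identifier for 16183 genes. Scaling alternatives used edgeR 4.0.16 and DESeq2 1.42.0 in R 4.3.3; the rest used scipy 1.17.1, pandas 2.3.3, numpy 2.4.6 and matplotlib 3.10.9 under Python 3.11.15. The procedure was tested on simulated data with counting error alone, the same error that the intervals assume. The changes planted there were larger than those of SNAI2 and TAGLN, and spread between cultures was not simulated. The 9 genes and the lists were chosen with earlier results of these data known. The text names the 9 genes, WWTR1, every called gene of a list, or the genes with the largest absolute log2 ratios where a list had no call; paralogs, overlapping genes, miRNA genes, ACTA2, the keratin and lung lineage markers that were not called, and all gene pairs except VIM and CDH1 were named after their values were seen.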

Additional observations from a re-analysis of the deposited data

How the results depend on the processing

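The log2 ratios of the 9 genes stayed within their counting intervals in all 54 recomputations (scaling by TMM, DESeq2 median of ratios, total reads or upper quartile, and pseudocounts of 0.5 and 5), and the median of all genes moved by less than 0.1. Without a minimum mean, ZEB1 entered and the mesenchymal median became 1.02 and its difference from the epithelial median 0.85, in place of 0.69 and 0.52. The number of mesenchymal genes called higher, 2, became 3 without a minimum mean, with ZEB1 added. It was 1 with a mean of at least 100, since TAGLN then drops out. With a stricter rule, by which the near end of the interval must pass 1.5-fold, it was again 1, without TAGLN. The epithelial mean was 0.089 in place of the median of 0.17. Of the related genes, 3 were called higher and 4 lower at 2-fold, and 8 lower under that stricter rule. Without transcript length, VIM stood at 2.25% of CDH1 in TAZ4SA cells and 2.12% in control cells. Of 104 list medians recomputed, 101 stayed within their counting range and 3 moved, all with the mean in place of the median; of 260 list counts, 12 moved by over 1.5 times, all at 2-fold or under the stricter rule. No paired analysis was possible because there is a single library of either kind. Depth limits ZEB1, SNAI1 and TAGLN most, on 9 to 86 reads per library.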
